A study of Mus musculus with 12 samples.

Results

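The genes described here are Bmp4, a secreted ligand of the bone morphogenetic protein (BMP) family, and 7 genes known as targets of BMP-Smad signalling: Id1, Id2, Id3, Msx1, Msx2, Smad6 and Hand1. All array probe sets matched to 1 of these symbols were taken, which gave 13 of 34945 probe sets and 8 of the 18193 genes measured. The cells were embryoid bodies of strain 129, aggregates of mouse embryonic stem cells grown without LIF in suspension, at day 2.5. Smad4-null and Trim33 knock-down (Trim33-KD) embryoid bodies were set beside wild type (WT), and each genotype received either activin at 50 ng/ml or the receptor inhibitor SB431542, labelled as 10 mM, for 2 h. Each of the 6 groups had 2 arrays, 12 in all. No group was left untreated, so the activin response below is activin minus SB431542, and the share of each agent in it cannot be told apart. The labels give neither how Smad4 was deleted nor how Trim33 was knocked down, nor whether the lines were single clones, so line and genotype cannot be told apart. They also do not say whether the 2 arrays of a group came from separate cultures, so p-values measure the spread between these arrays, which may be technical.

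BMP ligands bind serine/threonine kinase receptors that phosphorylate Smad1, Smad5 and Smad9, while activin and nodal receptors phosphorylate Smad2 and Smad3. Both classes of Smad protein join Smad4 and bind target genes in the nucleus. SB431542 blocks the activin, nodal and TGF-beta type I receptors and leaves the BMP type I receptors largely uninhibited. Trim33, a ubiquitin ligase of the nucleus, binds activated Smad2 and Smad3. Id proteins are helix-loop-helix factors without a DNA binding region that hold back differentiation factors, and in mouse embryonic stem cells their induction by BMP supports self-renewal.

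Values are the deposited log2 signals, so a difference of 1 is a doubling. Array medians lay between 5.85 and 6.30. The spread of log2 signals was narrower on WT with SB431542 replicate 2 (SD 3.07) and on Smad4-null with activin replicate 1 (3.13) than on the other arrays (3.24 to 3.39), and calls of the 8 genes and of the BMP pathway lists that change without these 2 arrays are given with and without them. Trim33 averaged 10.18 ± 0.23 in Trim33-KD and 11.72 ± 0.16 in WT (SD, n = 4 each), with no overlap. Smad4 averaged 12.17 ± 0.05 in Smad4-null and 11.96 ± 0.07 in WT. The place of its probes relative to the mutated part is not given, so this signal is no check of the label. The 7 epiblast markers (Pou5f1, Fgf5, Pou3f1, Otx2, Dnmt3b, Sall4 and Utf1) all reached a group mean of 7 or more, and their summed linear signal lay between 38751 and 46935 on the 12 arrays. A gene was called when limma's Benjamini-Hochberg adjusted p over all 18193 genes was under 0.05.

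Promoters were read because several of these genes moved together in Smad4-null embryoid bodies. RefSeq promoter sequence (build GRCm38.p6) was matched for 6 of the 8 genes, namely Id2, Id3, Msx1, Msx2, Smad6 and Bmp4. The 250 bases before the start of Id2 (chr12:25096093-25096342, minus strand), Id3 (chr4:136143572-136143821, plus strand) and Msx1 (chr5:37824586-37824835, minus strand) are shown because these 3 genes had the clearest falls in Smad4-null embryoid bodies among the 6. Each runs 5′ to 3′ on the strand of the gene, and capitals mark GGCGCC and GGAGCC, 2 sequences known from Smad1 and Smad5 binding, on either strand (GGCTCC is GGAGCC read from the other strand).
Id2: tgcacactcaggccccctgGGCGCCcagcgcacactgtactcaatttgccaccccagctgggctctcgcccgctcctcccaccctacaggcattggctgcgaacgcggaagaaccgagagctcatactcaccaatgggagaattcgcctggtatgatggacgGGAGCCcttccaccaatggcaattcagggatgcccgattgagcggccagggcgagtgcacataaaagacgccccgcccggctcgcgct
Id3: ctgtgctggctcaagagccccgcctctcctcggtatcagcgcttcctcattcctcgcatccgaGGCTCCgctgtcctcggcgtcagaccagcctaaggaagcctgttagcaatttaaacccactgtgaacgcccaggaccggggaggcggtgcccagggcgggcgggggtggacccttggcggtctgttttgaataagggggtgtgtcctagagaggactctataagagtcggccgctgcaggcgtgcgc
Msx1: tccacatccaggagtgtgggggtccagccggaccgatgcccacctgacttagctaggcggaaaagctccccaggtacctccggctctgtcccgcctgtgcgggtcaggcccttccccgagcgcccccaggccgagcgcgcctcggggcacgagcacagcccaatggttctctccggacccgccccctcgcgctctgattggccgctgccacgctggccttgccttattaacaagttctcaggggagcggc
GGCGCC stood once among the 6 promoters, 231 bases before the Id2 start, and 9.6% of 32851 mouse promoters hold it in the same window. GGAGCC stood in 5 of the 6 (Id2, Id3, Msx2, Smad6 and Bmp4), against 26.0% of all promoters, and no match overlapped another. The Msx1 window held neither. GTCTAGAC and CAGACA, sequences known from Smad3 and Smad4 binding, were in 0 of the 6 and in 0.2% and 17.1% of all promoters. The GC content of the 3 printed windows was 62.8%, 62.8% and 68.0%, against a median of 52.4% over all promoters, and these motifs are rich in G and C. A match is a run of letters and not a measured binding site.

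**Figure D1:**
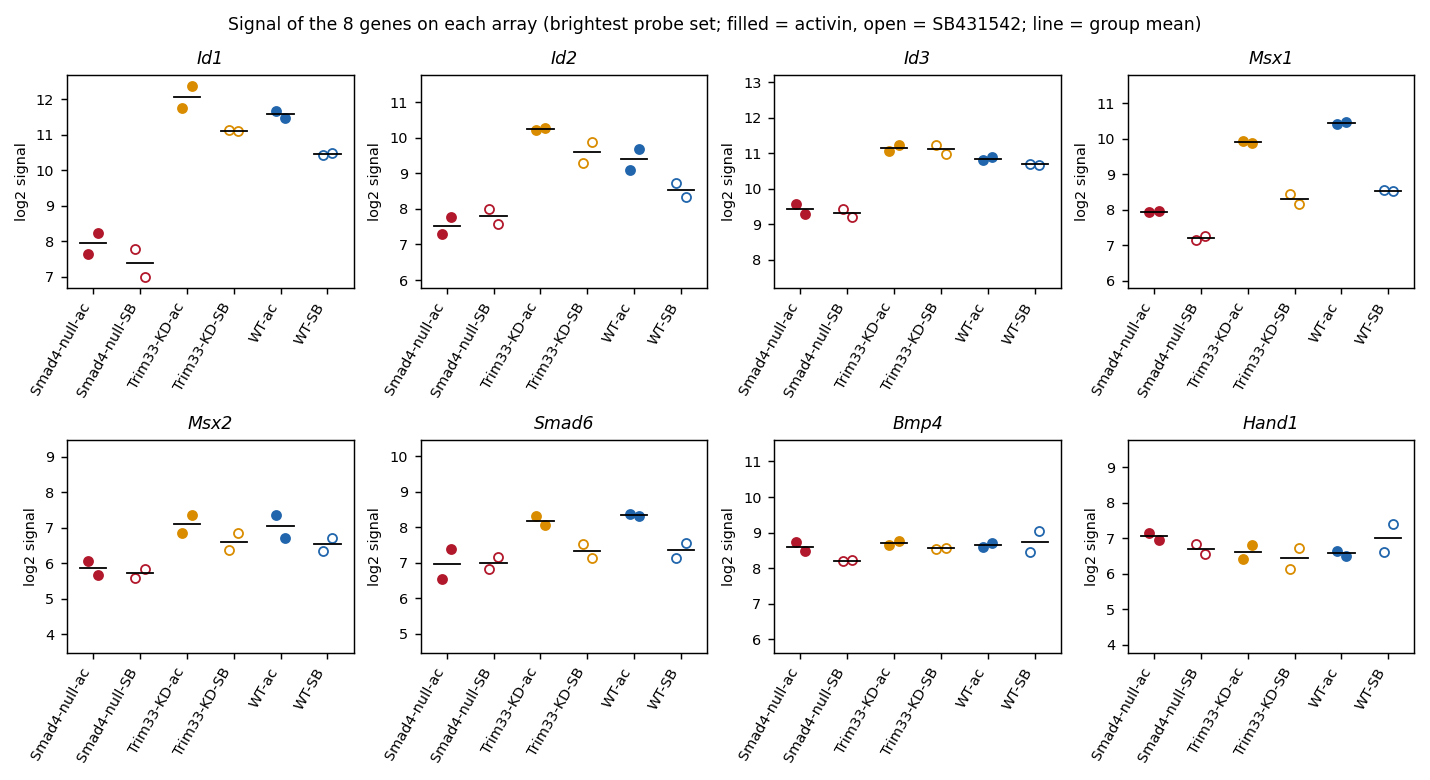
Log2 signal of each gene's brightest probe set on each of the 12 arrays (y axis, log2 signal; each panel spans 6 log2 units around its own centre), by genotype and treatment on the x axis. Id1, Id2, Id3, Msx1 and Msx2 lie lower on all Smad4-null arrays than on any Trim33-KD or WT array. Smad6, Bmp4 and Hand1 overlap across the genotypes.

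Activin raised 1 of the 8 genes in WT embryoid bodies, Msx1, a homeobox transcription factor of the early mesoderm and limb. Over all genes 0.033% were called in this comparison. Msx1 read 10.41 and 10.46 with activin, against 8.55 and 8.53 with SB431542. Both activin arrays stood far above both inhibitor arrays, and the replicates nearly coincided. The difference was 1.89 (SE 0.12, 95% interval 1.62 to 2.17), or 3.71-fold, with a limma adjusted p of 0.00449. The call was lost without WT with activin replicate 1 (adjusted p = 0.0996) or replicate 2 (0.11), or without WT with SB431542 replicate 2 (0.0745), or without both narrow arrays (0.143), while the size stayed between 1.87 and 2.01 over all alternatives. The dimmer Msx1 probe set differed by 1.94 (adjusted p = 0.155 over all probe sets). The brighter one carries a suffix for probes shared by several transcripts.

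Msx1 was also the only member raised by activin in Trim33-KD embryoid bodies, where 0.011% of all genes were called. It read 9.93 and 9.89 with activin, against 8.44 and 8.16 with SB431542. The groups did not overlap. The difference was 1.61 (SE 0.12, 95% interval 1.34 to 1.89), or 3.05-fold, with a limma adjusted p of 0.0143. This call was fragile. It was lost in 13 of 22 alternatives, among them leaving out any 1 of the 4 Smad4-null arrays, either WT or either Trim33-KD array with activin, or Trim33-KD with SB431542 replicate 2 (adjusted p 0.064 to 0.107), and without both narrow arrays (0.125). The size over all alternatives was 1.44 to 1.75. The dimmer probe set differed by 1.26 (adjusted p = 0.521).

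In Smad4-null embryoid bodies 0 of the 8 genes were called by limma, against 0.011% of all genes, and 1 had an unadjusted p under 0.05, against 6.81% of all genes. That 1 was again Msx1. It read 7.93 and 7.96 with activin, against 7.16 and 7.26 with SB431542. The 2 groups did not overlap, and the difference was 0.74 (95% interval 0.46 to 1.01, adjusted p = 0.189). Smad4-null Msx1 with activin was lower than WT Msx1 with the inhibitor on every array. From low to high, the group means ran Smad4-null with SB431542, Smad4-null with activin, Trim33-KD with SB431542, WT with SB431542, Trim33-KD with activin and WT with activin. The neighbours Trim33-KD and WT with SB431542 lay close, at 8.16 and 8.44 beside 8.55 and 8.53.

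Id1, Id2 and Smad6 had positive differences in WT that limma did not call. Id1 read 11.67 and 11.46 with activin, against 10.43 and 10.48 with SB431542 in WT. Id2, whose protein holds back E proteins as the other Id proteins do, read 9.10 and 9.69 with activin, against 8.74 and 8.34 with SB431542. Smad6, an inhibitory Smad that dampens BMP receptor signalling, read 8.38 and 8.32 with activin, against 7.15 and 7.55 with SB431542. For each of the 3 genes both activin arrays were above both inhibitor arrays. The differences were 1.11 for Id1 (95% interval 0.37 to 1.86, adjusted p = 0.85), 0.85 for Id2 (0.14 to 1.56, adjusted p = 1) and 1.0 for Smad6 (0.30 to 1.69, adjusted p = 0.891). With Msx1, 4 of 8 genes had an unadjusted limma p under 0.05, against 4.02% of all genes.

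The same genes read as follows in Trim33-KD embryoid bodies. Id1 had 11.75 and 12.38 with activin, against 11.12 and 11.10 with SB431542, a difference of 0.96 (0.21 to 1.70, adjusted p = 1). Smad6 had 8.31 and 8.06 with activin, against 7.52 and 7.13 with SB431542, a difference of 0.86 (0.16 to 1.56, adjusted p = 1). Id2 had 10.22 and 10.28 with activin, against 9.30 and 9.89 with SB431542, a difference of 0.65 (−0.06 to 1.36). In none of these 3 genes did the treatments overlap, yet none was called.

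In Smad4-null embryoid bodies the treatments overlapped for all 3 on the brightest probe set of each gene. Id1 read 7.64 and 8.23 with activin, against 7.79 and 7.0 with SB431542. Id2 read 7.29 and 7.76 with activin, against 8.0 and 7.59 with SB431542. Smad6 read 6.55 and 7.39 with activin, against 6.82 and 7.18 with SB431542. The differences were 0.54 for Id1 (−0.21 to 1.29), −0.27 for Id2 (−0.98 to 0.44) and −0.03 for Smad6 (−0.73 to 0.67). A second Id2 probe set read 7.24 and 7.20 with activin, against 7.15 and 6.78 with SB431542. It did not overlap and had the other sign, at 0.26 (−0.44 to 0.96).

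On the brightest probe set of each, the other 4 genes had activin differences between −0.43 and 0.51 in all 3 genotypes, and none was called. Id3, the third of the Id genes here, differed by 0.16 in WT (95% interval −0.19 to 0.51), a narrow range that leaves out a doubling. Msx2, a homeobox relative of Msx1, differed by 0.51 (−0.21 to 1.24), which does not leave one out. Bmp4 differed by −0.09 (−0.54 to 0.37) and Hand1, a helix-loop-helix factor of trophoblast, heart and extraembryonic mesoderm, by −0.43 (−1.14 to 0.28). The median activin difference of the 8 genes was 0.68 in WT, where that of all genes was −0.05. It was 0.58 in Trim33-KD, where that of all genes was −0.05, and 0.24 in Smad4-null, where that of all genes was 0.06.

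**Figure D2:**
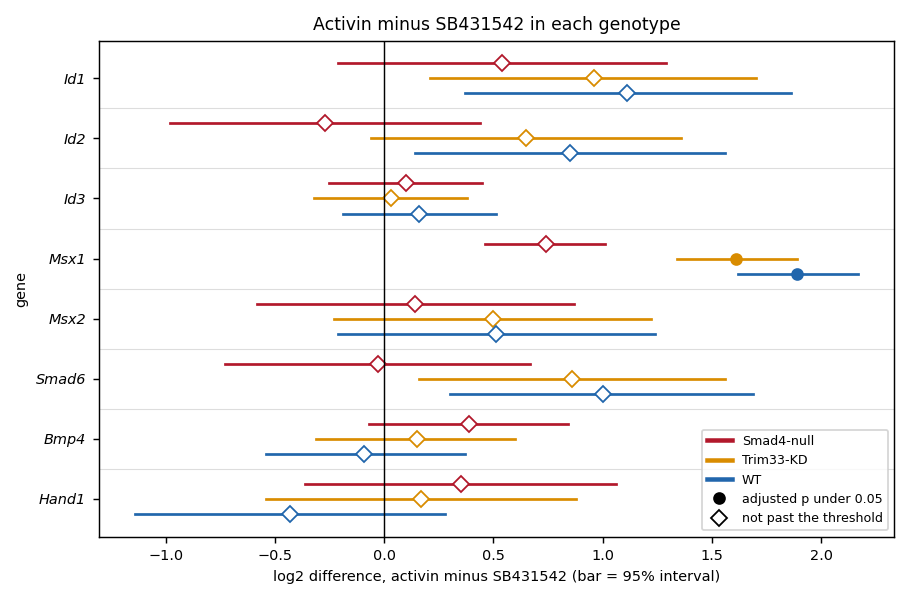
Activin minus SB431542 for each gene in each genotype (log2 difference, bars are 95% intervals, 2 arrays a group; filled points passed an adjusted p under 0.05). Msx1 is the only gene called, at 1.61 in Trim33-KD and 1.89 in WT.

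Whether the responses differed between genotypes was tested as the difference of the 2 differences. No gene on the arrays was called by limma for Smad4-null against WT (0%) or for Trim33-KD against WT (0%). At an unadjusted p under 0.05 there were 3 of the 8 genes and 7.24% of all genes in the Smad4-null comparison, and 0 of the 8 genes and 2.67% of all genes in the Trim33-KD comparison. The Msx1 response was smaller in Smad4-null than in WT by 1.15 on the log2 scale (−1.15, 95% interval −1.54 to −0.76, adjusted p = 0.264). Among the brighter 50% of genes (by mean signal) its adjusted p was 0.0488, and 0.044% of those genes were called. Id2 differed by −1.12 (−2.12 to −0.12, adjusted p = 0.654) and Smad6 by −1.03 (−2.01 to −0.04, adjusted p = 0.681). The Id2 value depended on the probe set. A second Id2 probe set differed by −1.08 and the dimmest by 1.38 (limma adjusted p 0.734 and 0.335 over all probe sets). For Trim33-KD the Msx1 response differed from that of WT by −0.28 (−0.67 to 0.11) and the Id1 response by −0.16 (−1.21 to 0.90). These intervals still allow a difference of 0.67 for Msx1 and over 1 for Id1.

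Smad4-null embryoid bodies had less signal than WT for 6 of the 8 genes, averaged over the treatments. Id1, Id2, Id3, Msx1, Msx2 and Smad6 fell, none rose, and Bmp4 and Hand1 were not called. Over all genes 18.4% were called here, and 11.3% as lowered. The median of the 8 differences was −1.16, against −0.03 over all genes. Signal per array cannot tell fewer cells that use a gene from less RNA per cell, here or in any comparison below.

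Id1 fell furthest among the 8. On the Smad4-null arrays it lay between 7.0 and 8.23 (mean 7.66 ± 0.51, SD, n = 4), against 10.43 to 11.67 on the WT arrays (11.01 ± 0.65, n = 4). A gap of over 2 log2 units separated the genotypes. The difference was −3.34 (SE 0.23, 95% interval −3.87 to −2.81, adjusted p = 0.000189), which left 9.88% of the WT signal (6.84% to 14.3%).

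Msx1 averaged 7.58 ± 0.43 in Smad4-null and 9.49 ± 1.09 in WT, where the large SD holds the activin response. The difference was −1.91 (SE 0.08, adjusted p = 6.42e-05), or 26.6% of WT. Its dimmer probe set differed by −1.83 (adjusted p = 0.00103 over all probe sets). Every Smad4-null array was below every WT array on the brighter probe set.

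Id3 read 9.57 and 9.28 with activin and 9.43 and 9.21 with SB431542 in Smad4-null, against 10.81 and 10.88 with activin and 10.71 and 10.66 with SB431542 in WT. The 4 arrays of each genotype formed a tight group, whatever the treatment, and the groups did not overlap. The difference was −1.40 (SE 0.11, adjusted p = 0.000285), or 37.9% of WT.

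Id2 averaged 7.66 ± 0.30 in Smad4-null and 8.97 ± 0.57 in WT, a difference of −1.31 (SE 0.21, adjusted p = 0.0057), or 40.3% of WT. A second Id2 probe set read 7.24, 7.20, 7.15 and 6.78 on the Smad4-null arrays, against 9.46, 9.52, 8.64 and 7.68 on the WT arrays, with activin before SB431542. It too did not overlap, and it differed by −1.73 (adjusted p = 0.00281). The third, a dim one, differed by −0.98 (adjusted p = 0.00332).

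Msx2 and Smad6 were the weaker calls. Msx2 read 6.05 and 5.66 with activin and 5.58 and 5.85 with SB431542 in Smad4-null, against 7.36 and 6.72 with activin and 6.34 and 6.72 with SB431542 in WT. The ranges stayed narrowly apart, and the difference was −1.0 (SE 0.22, adjusted p = 0.0184). Msx2 was dim, at 47.7 to 66.3 on the linear scale in Smad4-null. It was outside the brighter 50% of genes, so that alternative did not apply to it. With the mean of its probe sets the Msx2 call was lost (−0.84, limma adjusted p = 0.113). Smad6 averaged 6.98 ± 0.37 in Smad4-null and 7.85 ± 0.60 in WT and overlapped between them, with a difference of −0.87 (SE 0.21, adjusted p = 0.0273). Without both narrow arrays Msx2 differed by −1.0 (adjusted p = 0.0811) and Smad6 by −0.56 (0.109), which leaves 4 of the 8 genes called, Id1, Id2, Id3 and Msx1. Those 4 were called in all 22 alternatives, Msx2 in 15 of 21 and Smad6 in 13 of 22. Leaving out 1 array at a time, Msx2 was lost without Smad4-null with activin replicate 2, Smad4-null with SB431542 replicate 1, WT with activin replicate 1 or WT with SB431542 replicate 2 (adjusted p 0.0546 to 0.0654). Smad6 was lost without any 1 of 6 arrays, that is every Smad4-null or WT array other than Smad4-null with activin replicate 2 and WT with SB431542 replicate 1 (adjusted p 0.0524 to 0.0918). Leaving out a Trim33-KD array lost neither call.

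Bmp4 itself, the ligand, did not pass the test. It read 8.73 and 8.47 with activin and 8.19 and 8.22 with SB431542 in Smad4-null, against 8.59 and 8.70 with activin and 8.44 and 9.03 with SB431542 in WT. The genotypes overlapped with activin and not with SB431542. The averaged difference was −0.29 (95% interval −0.61 to 0.03, adjusted p = 0.211), or 81.8% of WT. It was called, at −0.43, without WT with SB431542 replicate 1 (adjusted p = 0.0313). Bmp4 lies on chromosome 14, and the run of 38 neighbouring measured genes that holds it had a median Smad4-null minus WT difference of 0.14. Hand1 read 7.16 and 6.95 with activin and 6.83 and 6.56 with SB431542 in Smad4-null, against 6.65 and 6.51 with activin and 6.61 and 7.40 with SB431542 in WT. It averaged 6.88 ± 0.25 in Smad4-null and 6.79 ± 0.41 in WT, with overlapping arrays and a difference of 0.09 (−0.42 to 0.59, adjusted p = 0.836).

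**Figure D3:**
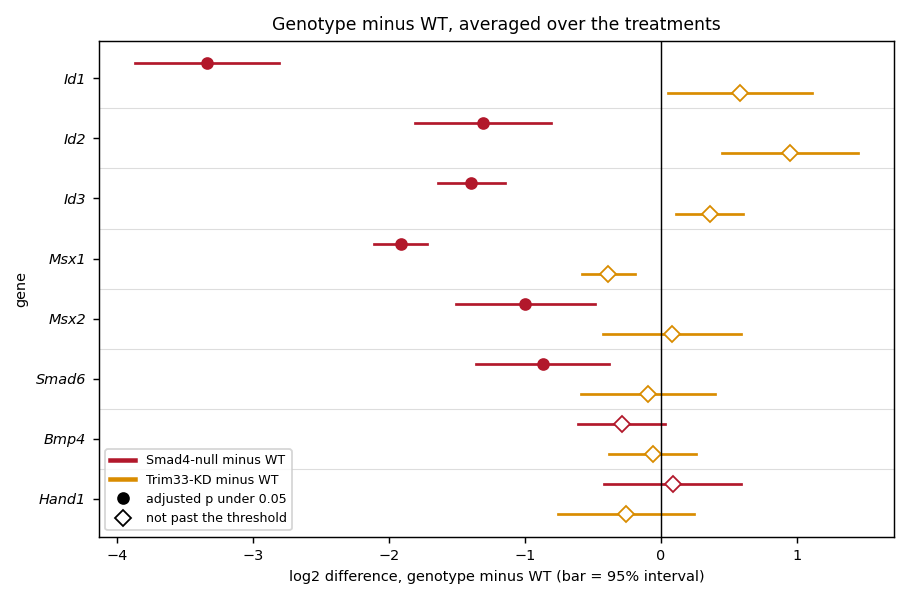
Smad4-null minus WT and Trim33-KD minus WT for each gene, averaged over the treatments (log2 difference, bars are 95% intervals, 4 arrays a genotype; filled points passed an adjusted p under 0.05). In Smad4-null, 6 genes are called lower, from −3.34 for Id1 to −0.87 for Smad6, and in Trim33-KD none is called.

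Split by treatment, 5 of the 8 genes fell in Smad4-null with activin, where 9.29% of all genes were called and 5.6% were lowered. They were Id1 (−3.63, adjusted p = 0.00138), Msx1 (−2.49, adjusted p = 0.000276), Id2 (−1.87, adjusted p = 0.0115), Id3 (−1.43, adjusted p = 0.0028) and Smad6 (−1.38, adjusted p = 0.0302). Msx2 differed by −1.18 (adjusted p = 0.0564). Id2 and Smad6 lost their calls without Smad4-null with activin replicate 1, without WT with activin replicate 2, or without both narrow arrays. Smad6 also lost its call without WT with activin replicate 1 or without either Smad4-null array with SB431542. The Id2 call held in 18 of 22 alternatives and the Smad6 call in 15 of 22. With SB431542, 3 of the 8 genes fell, where 9.1% of all genes were called and 6.12% were lowered. They were Id1 (−3.06, adjusted p = 0.003), Id3 (−1.36, adjusted p = 0.00342) and Msx1 (−1.33, adjusted p = 0.00184). Id2 differed by −0.75 (adjusted p = 0.184), and by −1.21 (adjusted p = 0.02) as the mean of its probe sets. Bmp4 differed by −0.52 (95% interval −0.98 to −0.07, adjusted p = 0.151). Its adjusted p was 0.047 among the brighter 50% of genes, of which 23.5% were called, and 0.0341 without WT with SB431542 replicate 1, where it differed by −0.82. Smad6 differed by −0.36 (adjusted p = 0.528). Thus Msx1 in Smad4-null held 17.8% of the WT signal with activin and 39.8% with the inhibitor, while the Id3 values were close to each other. Whether these 2 sizes differ is the response difference tested above.

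**Figure D4:**
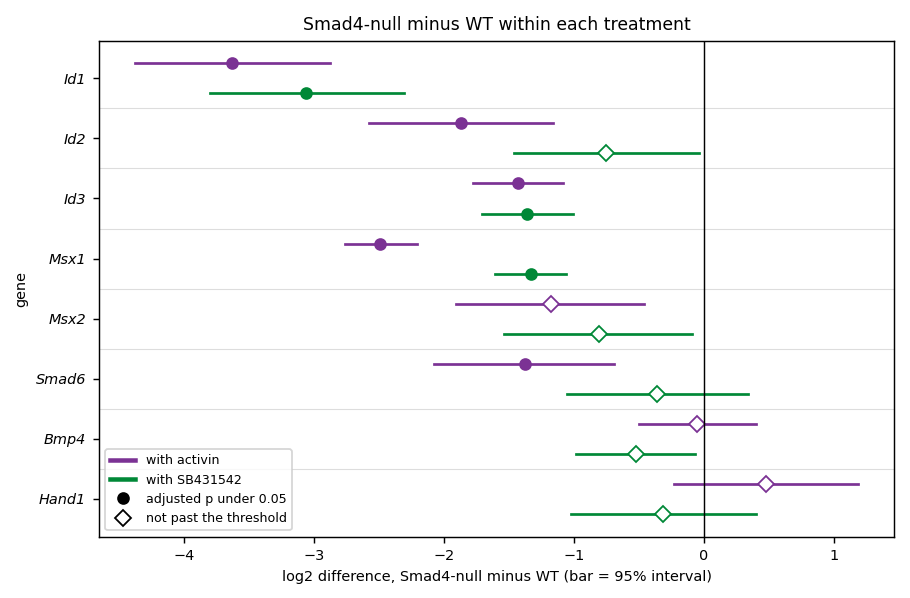
Smad4-null minus WT within each treatment (log2 difference, bars are 95% intervals, 2 arrays a group; filled circles passed an adjusted p under 0.05). Id1, Id3 and Msx1 are called with both treatments, while Id2 and Smad6 passed with activin and missed the threshold with SB431542.

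Trim33-KD embryoid bodies had no called difference from WT in these genes. Averaged over the treatments limma called 0 of the 8, against 0.649% of all genes, and 4 of the 8 had an unadjusted p under 0.05, against 17% of all genes. The 3 Id genes had positive differences and Msx1 a negative one. Id2 lay between 9.30 and 10.28 in Trim33-KD (mean 9.92 ± 0.45), against 8.34 to 9.69 in WT (8.97 ± 0.57). The genotypes overlapped with the treatments pooled, and not within either treatment. With activin, Id2 read 10.22 and 10.28 in Trim33-KD, against 9.10 and 9.69 in WT. With SB431542 it read 9.30 and 9.89, against 8.74 and 8.34. The averaged difference of Id2 was 0.95 (95% interval 0.45 to 1.45, adjusted p = 0.108), or 1.93-fold.

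Across the 6 groups the Id1 means rank Smad4-null with SB431542 (7.39), Smad4-null with activin (7.93), WT with SB431542 (10.45), Trim33-KD with SB431542 (11.11), WT with activin (11.56) and Trim33-KD with activin (12.07). The 2 Smad4-null groups overlapped on their arrays, and no other neighbours did. Id1 averaged 11.59 ± 0.61 in Trim33-KD and 11.01 ± 0.65 in WT, a difference of 0.58 (0.05 to 1.11, adjusted p = 0.258). Id3 read 11.05 and 11.22 with activin and 11.22 and 10.99 with SB431542 in Trim33-KD, all above the WT arrays given before. It averaged 11.12 ± 0.12 in Trim33-KD and 10.77 ± 0.10 in WT, a difference of 0.36 (0.11 to 0.60, adjusted p = 0.172). Msx1 averaged 9.10 ± 0.94 in Trim33-KD and 9.49 ± 1.09 in WT, a difference of −0.39 (−0.58 to −0.19, adjusted p = 0.0995). Among the brighter 50% of genes, of which 8.67% were called, Id2 (adjusted p = 0.0123) and Id3 (0.0454) passed as raised and Msx1 (0.018) as lowered. These signs held under every alternative, median centring included.

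The remaining 4 genes overlapped between Trim33-KD and WT. Msx2 read 6.84 and 7.37 with activin and 6.37 and 6.85 with SB431542 in Trim33-KD, and differed from WT by 0.08. Bmp4 read 8.64 and 8.76 with activin and 8.55 and 8.56 with SB431542 in Trim33-KD, and differed from WT by −0.06 (−0.38 to 0.26). Hand1 read 6.41 and 6.82 with activin and 6.15 and 6.73 with SB431542 in Trim33-KD, and differed from WT by −0.26 (−0.76 to 0.24). Smad6 differed by −0.10 (−0.59 to 0.40), and the intervals of all 4 spanned 0.

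Within a treatment limma called 0 of the 8 genes in Trim33-KD against WT. With activin 0.0055% of all genes were called, and 2 of the 8 genes, Id2 and Msx1, had an unadjusted p under 0.05, against 8.57% of all genes. With SB431542 0% of all genes were called, and 2 of the 8, Id2 and Id3, had an unadjusted p under 0.05, against 10.8% of all genes. Msx1 differed by −0.53 with activin (−0.80 to −0.25, adjusted p = 0.293) and by −0.24 with SB431542 (−0.52 to 0.03), where median centring gave 0.02. Id2 differed by 0.85 with activin and by 1.05 with SB431542 (0.34 to 1.76, adjusted p = 0.33). The Smad4-null and Trim33-KD comparisons share the WT arrays.

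The rest of the BMP pathway was read from lists of 45 further genes, 43 of which were measured. In the WT activin response, where 0.033% of all genes were called, 1 of the 43 was called, and in the other 2 genotypes 0 were. It was Smad7, an inhibitory Smad, which averaged 11.41 with activin and 8.30 with SB431542, a difference of 3.11 (adjusted p = 0.0222). That call held in 7 of 22 alternatives, while the difference stayed between 2.59 and 3.38. It was lost without both narrow arrays (2.84, adjusted p = 0.164), and among single arrays it held only without either Trim33-KD array with SB431542 or WT with SB431542 replicate 1. Among the brighter 50% of genes, Smad7 also passed as raised by activin in Trim33-KD, where 13 of 9097 genes were called. In the response difference of Smad4-null against WT it passed there as lowered, where 4 of 9097 genes were called. Between Smad4-null and WT, averaged over the treatments, 4 of the 43 were raised, 11 lowered and 28 not called, with a median of −0.24. In that comparison 18.4% of all genes were called and 11.3% were lowered. Without both narrow arrays 1 was raised and 7 lowered. Between Trim33-KD and WT limma called 0 of the 43, against 0.649% of all genes, with a median of −0.19. Among the brighter 50% of genes, of which 8.67% were called, 23 of the 43 were tested, and Acvr1, Bmp7 and Fst passed as lowered and Bambi as raised. With a floor of 64 on the linear signal Acvr1 passed as lowered.

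By role, 1 of 5 ligands was lowered in Smad4-null, Bmp2 (−1.60, adjusted p = 0.0482), which was dim in every group and was called in 1 of 21 alternatives. Of 8 receptors 2 were lowered, the co-receptor Rgmb (−0.82, adjusted p = 0.00185) and the type II receptor Bmpr2 (−0.49, adjusted p = 0.0322). Of 4 transducers 1 was lowered, Smad5 (−0.59, adjusted p = 0.00448). In this comparison 11.3% of all genes were lowered, and these short lists were not tested against that share. The Bmpr2 call held in 8 of 22 alternatives. With activin alone 2 of the 4 transducers were lowered, Smad5 and Smad1, where 5.6% of all genes were lowered. That Smad1 call held in 10 of 22 alternatives, with differences from −1.1 to −0.65, and −0.74 without both narrow arrays. Of 7 secreted antagonists 4 were lowered, with a median of −1.14, and 3 without both narrow arrays. Fst, which binds activin and BMPs, averaged 8.09 with activin and 7.59 with SB431542 in Smad4-null, against 12.45 with activin and 12.68 with SB431542 in WT, a difference of −4.72 (adjusted p = 8.21e-05). Cer1, which binds nodal and BMP4, differed by −3.42 (adjusted p = 0.000818), Bmper by −1.55 (adjusted p = 0.00136) and Chrd, which binds BMPs, by −1.14 (adjusted p = 0.0098). Bmper was dim, with a highest group mean of 6.39. Its call held in 20 of 21 alternatives and was lost with the floor of 64, and its difference ranged from −1.73 to −0.21. Fst and Cer1 are also known as genes of activin and nodal signalling.

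Of 6 intracellular inhibitors, Smad7 was lowered in Smad4-null on average (−1.06, adjusted p = 0.00887) and Tob1 raised (0.72, adjusted p = 0.00709). The Smad7 average hides 2 unlike values: it differed by −2.49 with activin (adjusted p = 0.00313) and by 0.38 with SB431542 (adjusted p = 0.449). Of 10 further BMP targets 1 was lowered and 3 raised. Cdx2, a homeobox factor of the posterior epiblast and trophectoderm, was lowered (−2.95, adjusted p = 0.00118). Dlx5 (1.07, adjusted p = 0.019), Tbx3 (0.82, adjusted p = 0.0235) and Id4 (0.58, adjusted p = 0.0203) were raised, in 15 of 21, 12 of 21 and 15 of 22 alternatives. The fourth Id gene thus had the other sign from Id1, Id2 and Id3. Dlx5 was dim, with a highest group mean of 6.12, and its difference ranged from 0.06 to 1.23 over the alternatives. Of the 3 Id partners, E proteins that bind Id proteins, Tcf12 was lowered (−0.45, adjusted p = 0.00782). Of the calls averaged over the treatments, those lost without both narrow arrays were Bmp2, Bmpr2, Chrd, Tcf12, Dlx5, Tbx3 and Id4.

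**Figure D5:**
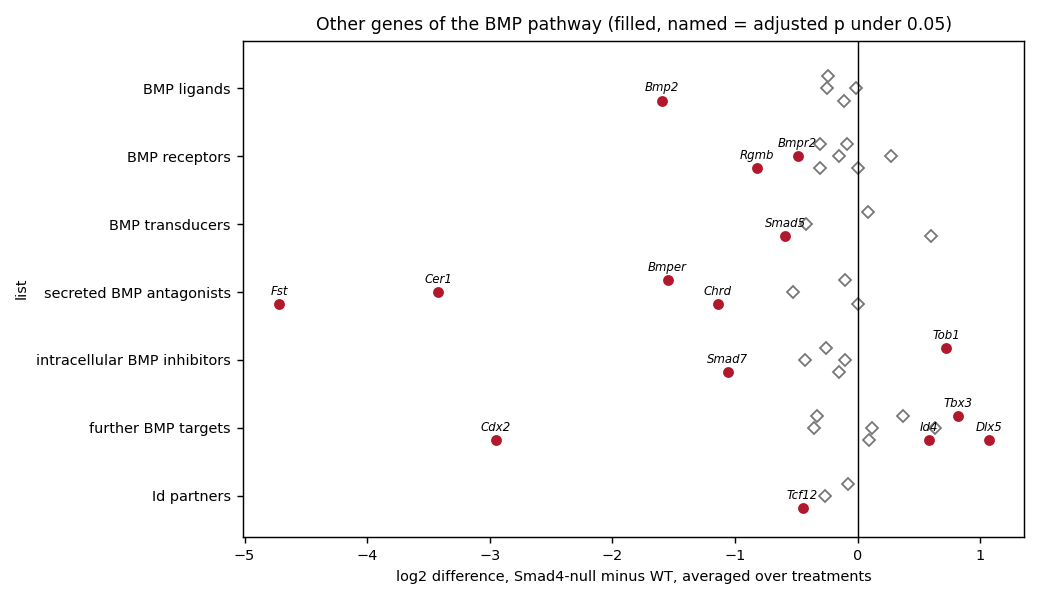
Smad4-null minus WT, averaged over the treatments, for the 43 other measured BMP pathway genes by role (x axis, log2 difference; filled points passed an adjusted p under 0.05 and are named). Secreted antagonists reach lowest, with Fst at −4.72 and Cer1 at −3.42, and 4 genes of other roles are raised.

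Of the markers of other cell types, some were called between Smad4-null and WT, where 18.4% of all genes were, and 0 between Trim33-KD and WT, where 0.649% of all genes were. Of the mesoderm list 6 of 7 were measured, and their summed linear signal was 324 to 472 in Smad4-null, 286 to 498 in Trim33-KD and 588 to 803 in WT. Mesp1 was the 1 of the 6 called, lowered in Smad4-null (−1.47, adjusted p = 0.00408). The 8 extraembryonic endoderm markers summed to 736 to 883 in Smad4-null, 926 to 1119 in Trim33-KD and 995 to 1153 in WT, with Gata6 (−1.50), Sox7 (−1.34) and Sox17 (−1.18) lowered in Smad4-null. The 7 trophectoderm markers summed to 1517 to 1752 in Smad4-null, 1368 to 1820 in Trim33-KD and 1219 to 1402 in WT, with Hopx raised in Smad4-null (0.53). The 7 fibroblast markers summed to 511 to 631 in Smad4-null, 510 to 553 in Trim33-KD and 502 to 634 in WT, overlapping ranges, with Dcn raised (3.27) and Thy1 (−0.76) and Col1a2 (−0.48) lowered in Smad4-null. Kdr, Dab2, Amn, Tfap2c, Ascl2 and Krt7 also reached a group mean of 7 or more. They were not called between Smad4-null and WT, averaged over the treatments. Of the 7 epiblast markers 2 were raised and 2 lowered in Smad4-null, averaged over the treatments. In Trim33-KD 1 of the 7 was lowered and 0 were raised, where 0.649% of all genes were called. The part of these markers in the differences of Id1, Id2, Id3, Msx1, Msx2 and Smad6 was not tested.

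Genes of the most similar pattern were found for the 3 members whose group means spanned over 2 log2 units, by the root mean square log2 difference over the 12 arrays after each gene was centred, among the brighter 50% of genes. For Id1, whose own spread by this measure was 1.80, they were Nefl (0.39), Wnt8a (0.51) and Nefm (0.53). For Id2, with a spread of 1.01, they were Ppp1r14c (0.34), Cebpd (0.35) and Fam83h (0.36). For Msx1, with a spread of 1.12, they were Fzd10 (0.32), Pmepa1 (0.39) and Lzts1 (0.47). No other member was among them: the nearest member to Id1 was Id2 (0.96), to Id2 it was Id3 (0.47), and to Msx1 it was Smad6 (0.63). The 12 arrays share 6 groups, so likeness over them rests mostly on the group means. The measure is not scaled, so genes of unlike spread lie apart whatever the shape of their patterns. Msx2 and Hand1 were outside the brighter 50% of genes and could not be listed.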

How the data were processed

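Labelled RNA of 12 embryoid body samples was hybridized to 1 Affymetrix mouse array each. Each deposited value is a log2 signal of 1 probe set; with 2% trimmed from both ends, the antilogs of every array average 500, and the arrays differ in distribution. The submitters' processing notes name limma without a version, and how probes were summarized is not stated by the labels used here. The log2 values were used unchanged. Arrays give no counts, so precision depends on how many arrays a group has.

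Of 45101 probe sets, 34945 had 1 symbol in the platform table and 932 with several were left out; no symbol needed an update by Entrez ID. The brightest probe set by mean stood for each of 18193 genes. A means model over the 6 groups (6 residual degrees of freedom) was fitted to all arrays with limma 3.58.1 in R 4.3.3 (lmFit and eBayes), with Benjamini-Hochberg adjustment over all genes and a threshold of 0.05. Other probe sets were tested in a fit of all probe sets. The fit was tested on simulated data. Figures used Python 3.11.15 and matplotlib 3.10.9.

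The genes and lists were chosen with earlier results of these data known. The rule named all 8 genes, the called genes of the pathway lists (up to 4 a list and direction), markers that were called or bright, and the 3 most similar genes of members with wide spans. Alternatives were median centring, quantile normalization, the brighter 50% of genes, a floor of 64 on the linear scale, all probe sets, their mean per gene, only the groups compared, array weights, no arrays of narrow spread, a replicate block, and leaving out each array.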

Additional observations from a re-analysis of the deposited data

Results flagged for a closer look

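Over the 39 sets of 4 arrays of a genotype tested (13 probe sets in 3 genotypes), 2 held an array that stood apart from the other 3, and chance marks about 1 set in 20. Hand1 read 7.40 on WT with SB431542 replicate 2, 1 of the 2 arrays of narrow spread, while the other 3 WT arrays read 6.51 to 6.65. The dimmest probe set of Id2 read 5.58 on Trim33-KD with SB431542 replicate 1, while the other 3 Trim33-KD arrays read 5.29 to 5.32. These sets of 4 hold both treatments.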

How the results depend on the processing

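No called difference changed sign under any alternative. Of the member counts under the alternatives 26 moved by over 1.5 times and 216 did not. Activin responses: in WT 0 genes were called with only the groups compared and with no arrays of narrow spread, and 0 to 1 leaving out 1 array. In Trim33-KD 0 were called with all probe sets, their mean per gene, only the groups compared and no arrays of narrow spread, and 0 to 1 leaving out 1 array. The Smad4-null minus WT response difference gave 1 (Msx1) among the brighter 50% of genes. Trim33-KD minus WT, averaged, gave 3 among the brighter 50% and 1 (Msx1) with the floor of 64. Smad4-null minus WT with activin gave 0 with only the groups compared, 3 with no arrays of narrow spread and 3 to 5 leaving out 1 array; with SB431542 it gave 0 with only the groups compared and 3 to 4 leaving out 1 array; averaged, 4 to 7 leaving out 1 array. A fit of only the groups compared has fewer arrays.

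Same-numbered arrays share only a number. Their deviations with activin and with SB431542 correlated at 0.39 in WT, 0.34 in Trim33-KD and −0.19 in Smad4-null. With the replicate block the member counts were 1 in the WT response, 1 in the Trim33-KD response, 6 in Smad4-null minus WT averaged, 5 with activin, 3 with SB431542 and 0 elsewhere, as without it; over all genes it gave 2 in the WT response, against 6.

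Over all genes the counts ranged as follows over the alternatives: 0 to 14 in the WT response (6 as reported), 0 to 11 in the Smad4-null response (2), 0 to 13 in the Trim33-KD response (2), 0 to 11 and 0 to 2 in the response differences of Smad4-null and Trim33-KD (0 each), 2026 to 4303 in Smad4-null minus WT averaged (3356), 0 to 2163 with activin (1690), 0 to 2136 with SB431542 (1656), 2 to 789 in Trim33-KD minus WT averaged (118), 0 to 61 with activin (1) and 0 to 105 with SB431542 (0). Median centring gave all-gene medians of 0.16 in Trim33-KD minus WT averaged (−0.04 without it), 0.23 with SB431542 (−0.04) and 0.11 with activin (−0.03), 0.05 in Smad4-null minus WT with SB431542 (−0.12) and −0.05 with activin (0.06), −0.10 in the Smad4-null response (0.06), 0.07 in the WT response (−0.05), and −0.17 and −0.12 in the response differences of Smad4-null and Trim33-KD (0.11 and 0). With SB431542, Smad4-null minus WT had 542 genes raised and 1114 lowered, and 581 and 494 with median centring.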

Other observations

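The dimmest Id2 probe set and the brightest one differed in sign between the treatments in Smad4-null embryoid bodies, and neither was called. The dimmest read 4.90 and 5.30 with activin, against 3.86 and 3.65 with SB431542, a difference of 1.34 (limma adjusted p = 0.149 over all probe sets). In WT it read 5.45 and 5.32 with activin, against 5.49 and 5.36 with SB431542. The brightest Id2 probe set differed by −0.27 in Smad4-null, and the second one by 0.26.

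The second probe set of Hand1 lay between 2.88 and 4.50 over the 12 arrays, and that of Msx2 between 1.26 and 5.16. Their activin differences were not called. For Msx2 they were 1.97 in Smad4-null (95% interval 0.06 to 3.88), 1.44 in Trim33-KD and 0.29 in WT. For Hand1 they were 0.43 in Smad4-null, 0.70 in Trim33-KD and 0.27 in WT. For Msx2 the dim probe set differed by −0.68 between Smad4-null and WT (adjusted p = 0.529 over all probe sets), where the brighter one was called. Id4 is a further Id gene whose group means were 8.65 with activin and 8.37 with SB431542 in Smad4-null, 8.02 with activin and 7.34 with SB431542 in Trim33-KD, and 8.12 with activin and 7.74 with SB431542 in WT.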
